A study of Mus musculus with 2 samples.

Results

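Type 1 conventional dendritic cells (cDC1) are antigen-presenting cells, and 98 cells with their core transcripts lay among 18029 passing LSK cells of mouse bone marrow. LSK cells lack lineage markers, carry Sca-1 and are high in Kit, a gate that holds stem cells and multipotent progenitors rather than mature dendritic cells. A cell was taken when its barcode had passed the deposited quality call and held at least 1 UMI (1 distinct RNA molecule) each of Batf3, Naaa and Id2, with Siglech under 2, Mpo under 20 and Ngp under 2 UMIs. Measured values thus chose the cells, and the levels of these 6 genes are given as descriptions only. The 4 pools were WT and IkBKO cells in replicates 1 and 2, told apart by hashing antibodies within 1 droplet library per replicate. The WT cells came from young wild-type mice. The IkBKO cells came from young mice that the labels call IκB-negative, without naming the altered IκB genes. All pools were marrow of both femurs and tibias with 30000 sorted cells per condition, and none is described as treated. How many mice gave each pool is not stated in the labels, so p-values reflect only how the 4 pools vary, which may be technical.

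Cell numbers come first because they limit every comparison. WT replicate 1 held 22 of the cells among 3721 passing cells, and IkBKO replicate 1 held 28 among 3962. WT replicate 2 held 16 among 4963, and IkBKO replicate 2 held 32 among 5383. The summed UMIs of these cells were 272726, 304925, 237013 and 374003 in the same order. No member's barcode occurred in both libraries, against 39 shared barcodes over all passing cells.

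Type 1 dendritic cells take up dead cells and present the antigens to CD8 T cells on MHC class I, a process called cross-presentation. They arise from Flt3-dependent progenitors in the marrow, and the transcription factors Irf8, Batf3 and Id2 set and hold their identity. Their surface receptors include the chemokine receptor Xcr1 and the dead-cell receptor Clec9a. IκB proteins keep NF-κB out of the nucleus until they are degraded, and NF-κB takes part in dendritic cell development, survival and activation.

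Promoter sequences (mm10, the 250 bases before the RefSeq start site of build GRCm38.p6, 5′ to 3′ on the gene's strand) are shown for 4 genes on which the descriptions below turn. Xcr1 and Ifi205 had the highest log2 values of the ranked genes against other cells, and H2-Aa and H2-DMb2 are MHC class II genes called between genotypes. Capitals mark matches, on either strand, to a CCAAT box (CCAAT), an interferon response motif (GAAA, any 2 bases, GAAA) or the κB motif. Xcr1 lies on the minus strand at chr9:123862030-123862279, Ifi205 on the minus strand at chr1:174031756-174032005, H2-Aa on the minus strand at chr17:34287824-34288073 and H2-DMb2 on the plus strand at chr17:34144999-34145248.
Xcr1: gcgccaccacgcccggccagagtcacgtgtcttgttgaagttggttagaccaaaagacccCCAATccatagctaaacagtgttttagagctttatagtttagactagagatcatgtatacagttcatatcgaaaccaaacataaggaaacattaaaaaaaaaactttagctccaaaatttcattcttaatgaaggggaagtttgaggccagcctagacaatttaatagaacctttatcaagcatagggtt
Ifi205: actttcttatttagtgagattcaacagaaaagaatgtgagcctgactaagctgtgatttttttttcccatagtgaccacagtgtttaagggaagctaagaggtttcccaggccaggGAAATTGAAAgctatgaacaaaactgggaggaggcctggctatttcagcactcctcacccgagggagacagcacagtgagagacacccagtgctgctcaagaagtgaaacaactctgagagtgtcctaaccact
H2-Aa: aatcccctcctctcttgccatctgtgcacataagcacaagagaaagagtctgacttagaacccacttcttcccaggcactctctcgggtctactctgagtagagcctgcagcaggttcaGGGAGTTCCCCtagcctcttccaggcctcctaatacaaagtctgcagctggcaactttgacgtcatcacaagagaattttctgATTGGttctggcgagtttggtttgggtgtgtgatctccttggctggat
H2-DMb2: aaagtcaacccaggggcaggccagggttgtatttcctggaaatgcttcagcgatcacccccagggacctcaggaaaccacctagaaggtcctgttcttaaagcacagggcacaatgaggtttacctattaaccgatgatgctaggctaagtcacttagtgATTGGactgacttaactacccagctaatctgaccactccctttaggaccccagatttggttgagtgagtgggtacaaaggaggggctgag
The Xcr1 window had a CCAAT box whose first base lay 190 bases before the start, and Ifi205 had the interferon response motif at 134 bases. H2-Aa had a CCAAT box on the opposite strand at 48 bases and overlapping κB matches at 130 and 131 bases. H2-DMb2 had a CCAAT box on the opposite strand at 90 bases. Over the 12 promoters of 10 MHC class II pathway genes found in the RefSeq table, 8 (66.7%) held CCAAT, against 33.9% of all 32841 promoters. κB matches stood in 3 of these 12 (25%), against 7.25% of all promoters. Of the 13 promoters of 12 cDC1 marker genes, 2 (15.4%) held the interferon response motif, against 2.98% of all promoters. In those 13, CCAAT stood in 2 (15.4%) and κB in 1 (7.69%). The interferon response motif stood in 1 of the 12 MHC class II promoters (8.33%). AP-1 motifs (TGA, any base, TCA) stood in 0 of the 13 and 2 of the 12 (16.7%), against 6.75% of all. ETS-IRF motifs (GGAA, any 2 bases, GAAA) stood in none of either set, against 2.3% of all. These shares are descriptions of letters, not of bound sites.

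The cells were divided into 2 ranges by their UMIs of 14 stem and multipotent progenitor genes, not scaled to depth. In 71 cells these genes summed to at most 5 UMIs, in 27 cells to between 8 and 82 UMIs (median 25), and no cell had 6 or 7. The 27 cells were 9 of 22, 4 of 28, 10 of 16 and 4 of 32 in WT replicate 1, IkBKO replicate 1, WT replicate 2 and IkBKO replicate 2, hence 40.9% and 62.5% of WT but 14.3% and 12.5% of IkBKO members. They had a median of 17567 UMIs per cell, against 9743 in the 71 cells. Hlf, a transcription factor of stem cells, stood at 349, 103, 337 and 324 CPM (the gene's UMIs as a share of all UMIs of the pool, on the usual CPM scale) in the 27 cells of the 4 pools in that order. In the 71 cells Hlf stood at 0, 4.40, 0 and 3.17 CPM. Hlf is 1 of the 14 genes, so the division itself sets much of this contrast. The summed 16 cDC1 marker genes reached 7365 to 10442 CPM in the 27 cells, 14367 to 22894 CPM in the 71 cells and 633 to 750 CPM in the other passing cells. As sums over each pool, the 27 cells thus carried both gene sets. This does not hold for each cell, since in an IkBKO cell of replicate 1 all 11 progenitor-gene UMIs were of Ly6a, the Sca-1 gene. Much of the cDC1 sum was Cst3, a gene typical of dendritic cells. Its median was 123 UMIs per cell in the 27 cells, against 1 for Xcr1 and 1 for Clec9a. Xcr1 or Clec9a was detected in 21 of the 27 cells (77.8%) and in 48 of the 71 (67.6%).

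Hashing tags of the cell's own genotype were also more abundant in the 27 cells of 3 pools. Their medians were 740 against 420 counts in WT replicate 1, 1680.5 against 920.5 in IkBKO replicate 1 and 126.5 against 60 in WT replicate 2. In IkBKO replicate 2 the medians were 115.5 against 122.5 counts. The other genotype's tag was at 226 against 209, 85 against 77.5, 17 against 21.5 and 5.5 against 7 counts. Whether some of the 27 barcodes held more than 1 cell was not tested, because the doublet caller marked 1 of 7683 and 0 of 10346 passing barcodes and was judged not to have worked. Genotype results below are given with all 98 cells and, for the lists and the genes described most closely, with the 71 cells, a division chosen after the data were seen.

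**Figure D1:**
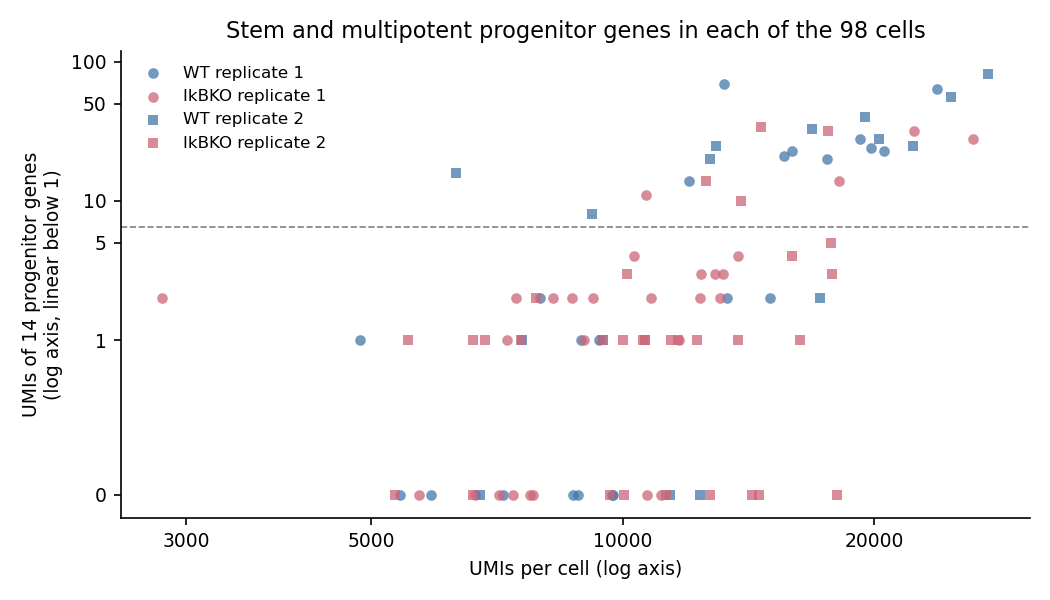
Each point is 1 of the 98 cells, with its UMIs on the x axis (log axis) and its UMIs of 14 stem and multipotent progenitor genes on the y axis (log axis, linear below 1). The dashed line divides the 71 cells with at most 5 such UMIs from the 27 cells with at least 8, of which 9 and 10 were WT cells of replicates 1 and 2.

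Markers that the rule did not use were checked against the cell type label. Xcr1 was detected in 44 of 98 cells, Clec9a in 55 and at least 1 of them in 69 (70.4%), which were 17 of 22, 18 of 28, 13 of 16 and 21 of 32 cells in the 4 pools. Among 17931 other passing cells, Xcr1 was detected in 37 (0.206%) and Clec9a in 135 (0.753%). Median depth was 11198.5 UMIs over the members and between 6975 and 13741.5 UMIs in the other cells of each pool. Thus both receptors were detected far more often than in cells of like depth. Plbd1 was found in 97 cells, Cst3, a cysteine protease inhibitor typical of dendritic cells, in 98, and Aif1 in 88. Plbd1 and Aif1 were given as markers together with the label, so they are no separate check of it. Wdfy4, which cDC1 need for cross-presentation, was found in 92 cells and Tlr3, the sensor of double-stranded RNA, in 49. Further genes of mature cDC1 were sparse, with the adhesion molecule Cadm1 in 17 cells and the integrin Itgae in 1 cell.

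Markers of other cell types were checked in the same way. None of the 8 mast cell and basophil genes had a UMI in any member, and Cd3e of T cells had none either. Ccr7, which marks migrating activated dendritic cells, was found in 2 cells, and Il4i1 with Fscn1 in 4 cells, all of them IkBKO. The 10 macrophage genes summed to 71.7 to 114 CPM in the members, above the 19.2 to 35.3 CPM in the other cells. The 12 cDC2 markers were also higher, at 722, 498, 565 and 594 CPM in the members of WT replicate 1, IkBKO replicate 1, WT replicate 2 and IkBKO replicate 2, against 111 to 180 CPM in the other cells. The 11-gene sum of monocyte markers was 2270, 1820, 1747 and 1874 CPM in the members in that order, against 545, 1434, 346 and 522 CPM in the other cells. Ccr2, the chemokine receptor of monocytes and of dendritic precursors, was detected in 82 cells, while Csf1r was detected in 12 and Ly6c2 in 17. Ccr2 is in both the cDC2 and the monocyte list and made up much of the cDC2 sum. The median was 2 cDC2 genes detected per member in each pool. Kit was detected in 72 of the 98 cells with a median of 1 UMI, and Flt3 in 71. Irf8 was detected in 93 cells, with a median of 16 and a range of 0 to 45 UMIs. The markers go with the label for most cells, but 5 lacked Irf8 and 29 lacked both receptors.

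**Figure D2:**
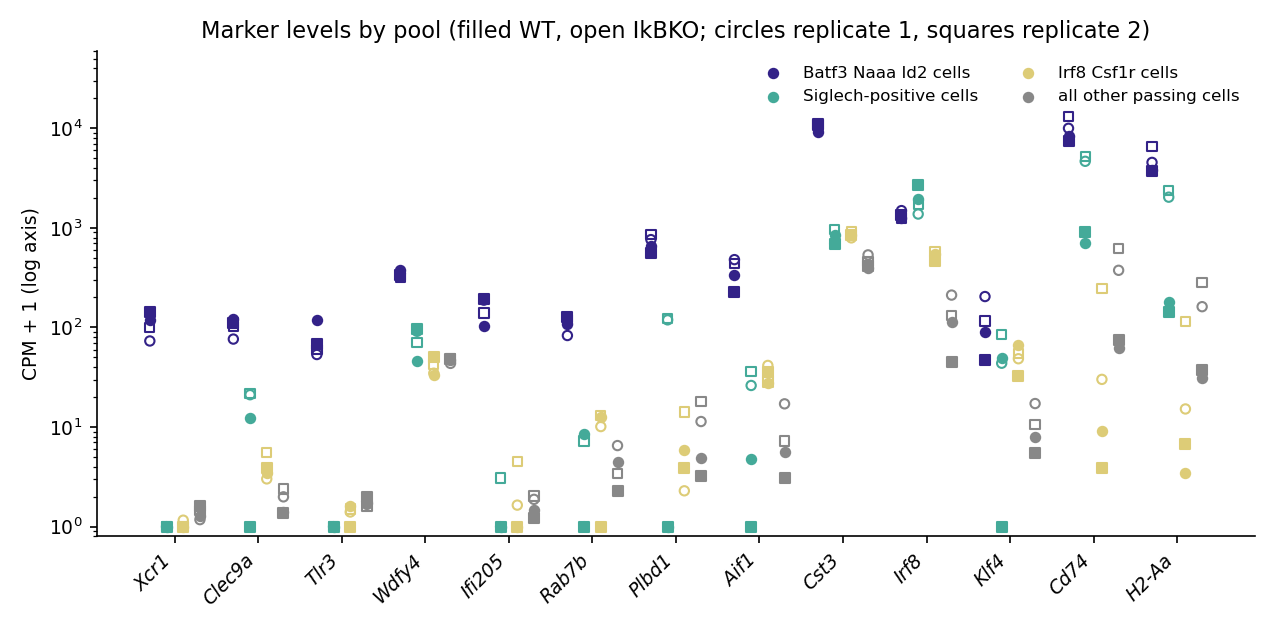
Levels of marker genes are plotted as CPM + 1 on a log axis for each of the 4 pools in the members, in Siglech-positive cells, in cells with Irf8 and Csf1r, and in all other passing cells. Filled points are WT and open points IkBKO, circles replicate 1 and squares replicate 2, and Xcr1 lies between 72.1 and 143 CPM in the members of all pools and at or below 0.62 CPM in all other passing cells.

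The edge of the rule was thinly held. In 48 of the 98 cells (16 WT and 32 IkBKO) at least 1 of the 3 genes had exactly 1 UMI, and 27 of these 48 held Xcr1 or Clec9a. Of the 50 cells with at least 2 UMIs of each gene, 42 held Xcr1 or Clec9a. Just outside lay 80 passing cells with Batf3 and Id2 but no Naaa, of which 62 were IkBKO and 10 held either receptor, with a median of 77 UMIs of Cd74. Another 80 had Naaa and Id2 but no Batf3, with a median of 3 UMIs of Cd74, and 19 of them held either receptor. Only 9 cells had Batf3 and Naaa but no Id2, and the upper limits on Siglech, Mpo and Ngp removed 3 cells with all 3 genes. Of 40 passing cells with both Xcr1 and Clec9a, 30 were members.

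The rule's 3 genes stood far above the other cells in every pool, as the rule fixes. Batf3, the factor without which cDC1 do not develop, stood at 191, 243, 169 and 259 CPM in the members of WT replicate 1, IkBKO replicate 1, WT replicate 2 and IkBKO replicate 2. Naaa, an acid amidase of lysosomes, stood at 433, 354, 376 and 353 CPM, and Id2, an inhibitor of E proteins, at 807, 1053, 819 and 834 CPM. In other passing cells Batf3 lay between 0.358 and 2.41 CPM. Per member the median was 2 UMIs of Batf3, 3 of Naaa and 9 of Id2.

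The transcripts that set these cells apart from the other LSK cells belonged to cDC1 receptors, sensors and antigen presentation. Since measured values chose the cells, this is a description. The ranking took only genes that passed edgeR's test, and nothing is read from that test. Xcr1 (ENSMUSG00000060509, mm10 chromosome 9, 123852315 to 123862029) stood at 117, 72.1, 143 and 98.9 CPM in the members of WT replicate 1, IkBKO replicate 1, WT replicate 2 and IkBKO replicate 2, against 0.276, 0.176, 0.62 and 0.443 CPM in the other cells. Clec9a (ENSMUSG00000046080, chromosome 6, 129408862 to 129424763) stood at 121, 75.4, 110 and 102 CPM, against 0.392, 0.992, 0.382 and 1.40 CPM. Ifi205, an interferon-inducible gene of the HIN-200 family, stood at 103, 187, 190 and 139 CPM against 0.215 to 1.03 CPM. Members and other cells did not overlap between pools for any of these genes. Ranked genes had to move the same way in each pool, which favors such separation. How many of all tested genes separate in this way is not given, so nothing is read from it. The other leading genes were Plbd1, Tlr3, Phf11a, March1, Aif1, Pid1, H2-Aa, Cd74, Ckb, H2-Eb1, Shtn1 and Slamf7. March1 encodes a ubiquitin ligase that removes MHC class II from the surface, and Slamf7 a receptor of the SLAM family.

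The lowest ranked genes were mostly of granulocytes and other blood lineages, with Car1 at the end of the ranking, and the rule's limits on Mpo and Ngp bear on the granulocyte genes. Elane, neutrophil elastase, was at 18.3, 13.1, 8.44 and 2.67 CPM in the members against 474, 1149, 121 and 247 CPM in the other cells of WT replicate 1, IkBKO replicate 1, WT replicate 2 and IkBKO replicate 2. Car1, carbonic anhydrase 1 of the erythroid lineage, had 1 UMI in all 98 members. Ms4a3, Ctsg, S100a8, S100a9, Camp, Dntt, Pf4 and Apoe followed. Over 12822 genes, 1269 (9.9%) passed edgeR's quasi-likelihood test (adjusted p of at most 0.05) as higher and 1411 (11%) as lower. Of the tested list genes, all 15 cDC1 markers and all 13 MHC class II genes were among the higher ones, while 10 of 11 granulocyte and 9 of 14 stem and progenitor genes were among the lower. Nothing is read from these counts, since the rule used the same contrast.

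Cells with at least 2 UMIs each of Irf8 and Csf1r, and Siglech and Ngp under 2, numbered 656 (69, 479, 16 and 92 in WT replicate 1, IkBKO replicate 1, WT replicate 2 and IkBKO replicate 2). They share Irf8 with the members and hold Csf1r, the growth factor receptor of monocytes. Xcr1 had 2 positive cells among these 656, Phf11a none, and Plbd1 lay between 1.29 and 13.1 CPM against 561 to 856 CPM in the members. Cd74, the invariant chain of MHC class II, stood at 8.04, 29.1, 2.88 and 245 CPM there against 8375, 9989, 7476 and 13048 CPM in the members of WT replicate 1, IkBKO replicate 1, WT replicate 2 and IkBKO replicate 2. Slpi, Elane, Ms4a3, Hp, Ctsg, F13a1, Ly6c2 and Prtn3 were the lowest in the members by comparison, with Ly6c2 at 4.22 to 47.7 CPM against 812 to 1609 CPM. Unlike the members, this class had no limit on Mpo, which bears on granulocyte genes such as Elane, Ctsg and Prtn3. Over 4671 genes 984 (21.1%) passed as higher and 808 (17.3%) as lower. Nothing is read from these counts either. Siglech-positive cells (at least 2 UMIs of this plasmacytoid dendritic cell gene) numbered 7 in WT replicate 2, and cells with at least 1 UMI each of Il4i1 and Fscn1 numbered 0 in WT replicate 1, so these 2 classes were too small in a pool for a fit.

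Surface protein was read in replicate 1 with tags for CD48, CD150 and Flt3, none of which the rule used. CD48, a SLAM family protein that rises as stem cells leave the stem cell state, had a median of 888.5 counts per cell in WT members (n = 22) against 475 in other WT cells, and 890 in IkBKO members (n = 28) against 566 in other IkBKO cells. CD150, a marker of stem cells, had medians of 98.5 against 111 and 101.5 against 109 counts. Flt3 tags had medians of 114.5 against 126 and 120.5 against 121 counts. In the cells with at most 5 progenitor-gene UMIs the CD48 medians were 777 and 801.5 counts. With 1 library per tag these differences have no replicate check and no test.

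The share of the cells was slightly larger in IkBKO than in WT in both libraries, within counting error over all 98. In replicate 1 they made up 0.591% of passing WT cells (exact Clopper-Pearson 95% interval 0.371% to 0.894%, 22 cells) and 0.707% of IkBKO cells (0.470% to 1.02%, 28 cells), a ratio of 1.20 (0.660 to 2.19). In replicate 2 the shares were 0.322% (0.184% to 0.523%, 16 cells) and 0.594% (0.407% to 0.838%, 32 cells), a ratio of 1.84 (0.983 to 3.60). Both intervals include equal shares, and they cover counting error only. No permutation test over 2 pools against 2 can reach 0.05.

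The 2 ranges of progenitor-gene RNA, set after the data were seen, ran opposite ways. The progenitor genes that set them also summed lower in IkBKO than in WT among the other passing cells of both replicates. The part of this in the ratios was not tested. Members with at most 5 such UMIs were 13 and 24 cells in WT and IkBKO of replicate 1 (ratio of shares 1.73, 0.848 to 3.71) and 6 and 28 cells in replicate 2 (ratio 4.3, 1.75 to 12.7). Members with at least 8 were 9 and 4 cells in replicate 1 (ratio 0.417, 0.0939 to 1.5) and 10 and 4 cells in replicate 2 (ratio 0.369, 0.0844 to 1.28). Members with Xcr1 or Clec9a had ratios of 0.994 (0.484 to 2.05) and 1.49 (0.712 to 3.24). With every cell thinned to 4000 UMIs, which leaves out 121 and 570 shallower cells, the ratios over all members were 1.28 and 1.67. With Mpo under 5 UMIs the ratio of replicate 2 was 1.97 (1.03 to 3.91), whose interval leaves out equal shares. IkBKO cells outside the rule had more UMIs per cell than WT cells, with medians of 13741.5 against 9963 in replicate 1 and 9624 against 6975 in replicate 2.

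**Figure D3:**
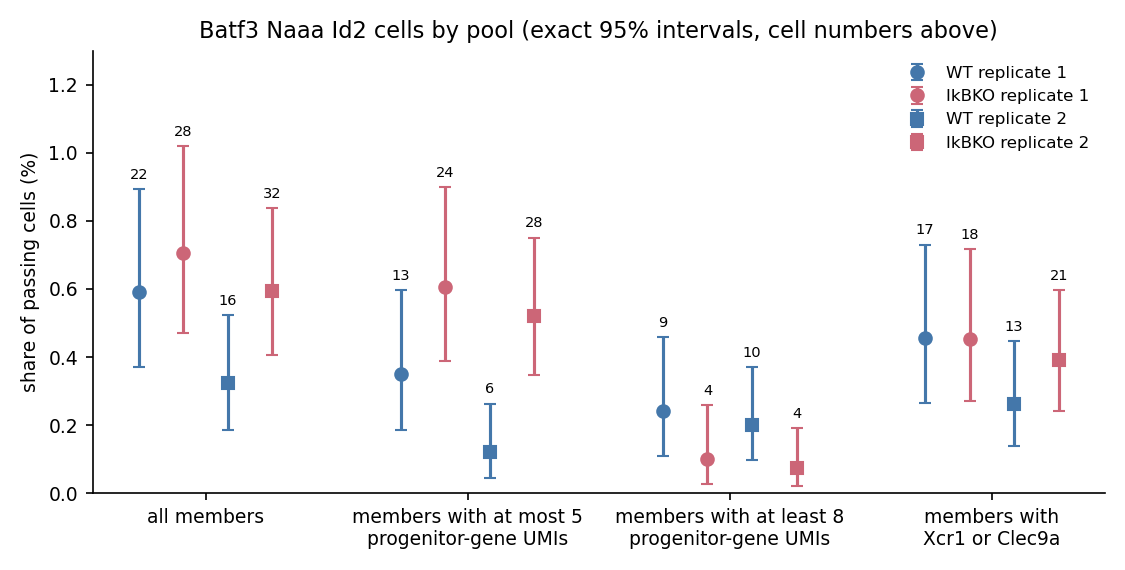
Shares of passing cells (%) are plotted for each pool with exact 95% intervals and the number of cells above each point, for all members, for members with at most 5 or at least 8 progenitor-gene UMIs, and for members with Xcr1 or Clec9a. In replicate 2 the members with at most 5 such UMIs were 6 WT and 28 IkBKO cells, and their intervals do not overlap. The division by progenitor-gene UMIs was chosen after the data were seen.

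Between genotypes, 6 of 12 MHC class II and 5 of 15 G2/M genes tested were called higher in IkBKO than in WT members, while 4 of 8 stem and progenitor genes, 5 of 10 immediate-early genes, Ccr2, Lyz2 and Ifi27l2a were called lower. Of 4144 genes tested with edgeR's quasi-likelihood test with replicate as a block, 62 (1.5%) rose and 76 (1.83%) fell at an adjusted p of at most 0.05, with a median log2 change of −0.01 over all genes. Over the 71 cells with at most 5 progenitor-gene UMIs the same test called 1 gene higher (0.0392%) and 1 lower (0.0392%) of 2550. Of these 2550 genes, 152 had an unadjusted p under 0.05. Their median log2 change is not given, so the list medians in the 71 cells below are not set against it. Of the 138 genes called in either direction (3.33%), 89 could be tested in the 71 cells. Of these, 84 kept their sign, but only Ifi27l2a kept its call. Every genotype fit that left out 1 pool also left out the replicate block and rested on 1 pool for 1 genotype. Over all members, leaving out WT replicate 1 gave 39 higher and 34 lower genes, and leaving out IkBKO replicate 2 gave 23 and 39. Leaving out IkBKO replicate 1 or WT replicate 2 gave 36 and 39 lower genes.

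**Figure D4:**
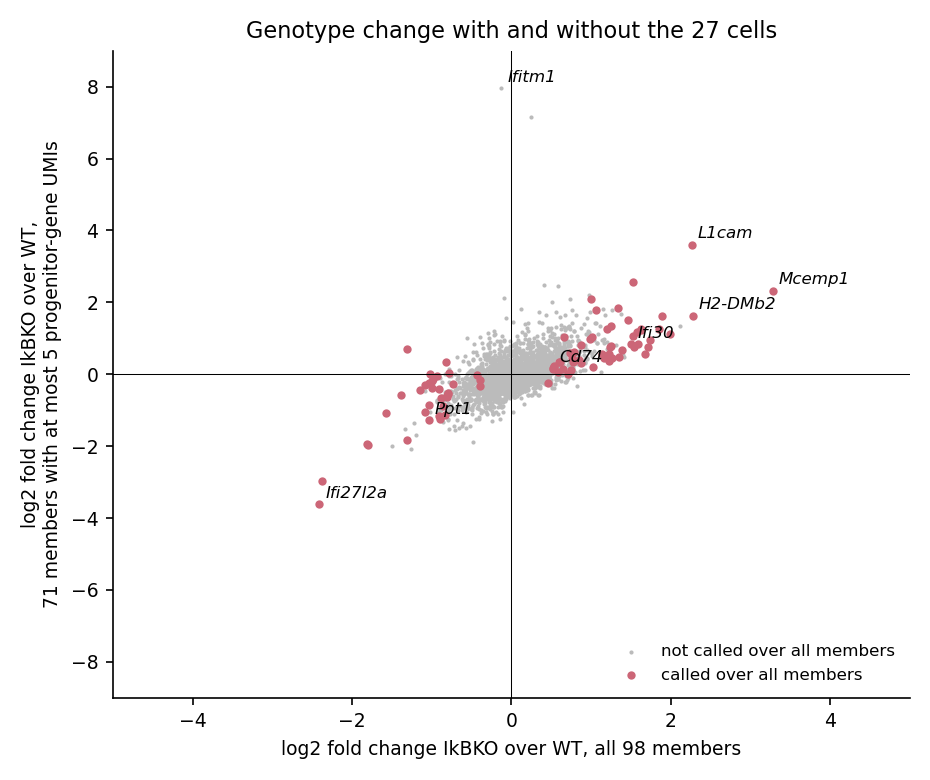
Each point is 1 of 2540 genes tested in both fits, with its log2 fold change IkBKO over WT in all 98 members on the x axis and in the 71 members with at most 5 progenitor-gene UMIs on the y axis. Red points are the 89 of these genes called over all members, of which 84 have the same sign on both axes.

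The MHC class II pathway was the list with most genes called higher, 6 of 12 tested, and none was called lower. Cd74 stood at 8375, 9989, 7476 and 13048 CPM in WT replicate 1, IkBKO replicate 1, WT replicate 2 and IkBKO replicate 2 (log2 fold change 0.52 ± 0.12 SE, edgeR adjusted p = 0.0033). H2-Aa (0.52), H2-Ab1 (0.54) and Ciita (0.77), the transactivator of class II genes, rose as well. Ifi30, a lysosomal thiol reductase that opens disulfide bonds of antigens, rose from WT levels of 319 and 359 CPM to 892 and 1037 CPM in IkBKO (1.5 ± 0.18, edgeR adjusted p = 4.8e-11). H2-DMb2, a beta chain of the H2-DM complex that loads peptides (ENSMUSG00000037548, mm10 chromosome 17, 34143307 to 34151555), rose from 44 and 16.9 to 138 and 168 CPM (2.28 ± 0.37, edgeR adjusted p = 1.9e-06). In each of these genes both IkBKO pools lay above both WT pools. The share of all tested genes whose pools separate in this way is not given, so nothing is read from it. The median log2 change over the 12 genes was 0.54, against −0.01 over all genes.

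With the 71 cells only, the MHC class II median was 0.26, 4 of 12 genes had an unadjusted p under 0.05 and edgeR called none. Cd74 then stood at 12630.5 and 9139 CPM in WT and at 11047.5 and 13911 CPM in IkBKO of replicates 1 and 2 (log2 fold change 0.18), so the replicates went opposite ways. Ifi30 stood at 478 and 679 CPM against 1007 and 1075 CPM (0.85 ± 0.25, edgeR adjusted p = 0.39), and H2-DMb2 was at 1.63 (adjusted p = 0.54). Over all 98 cells, Ifi30 and H2-DMb2 kept their calls whichever pool was left out. Cd74, H2-Aa, H2-Ab1 and Ciita lost theirs without WT replicate 1, without WT replicate 2 and without IkBKO replicate 2, with Cd74 at adjusted p = 0.28, 0.71 and 0.49 in that order. DESeq2's Wald test, which called 2 genes higher and 2 lower in all, kept Ifi30 (adjusted p = 0.0022) but not Cd74 or H2-DMb2.

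**Figure D5:**
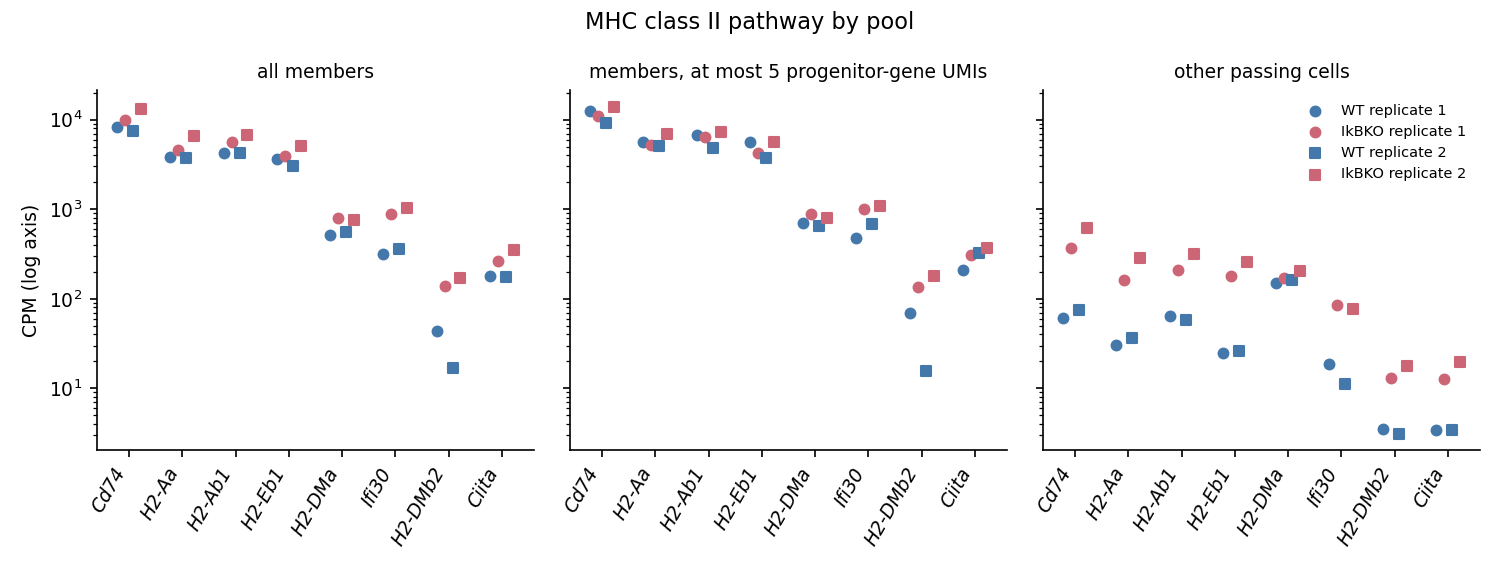
CPM of 8 MHC class II pathway genes (log axis) is plotted for the 4 pools in all members, in members with at most 5 progenitor-gene UMIs and in other passing cells. In all members both IkBKO pools lie above both WT pools for every gene shown, whereas for Cd74 in the middle panel IkBKO replicate 1 lies below WT replicate 1.

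Of 14 MHC class I and cross-presentation genes tested, Tap1 was the 1 called. Tap1, a subunit of the peptide transporter, rose from WT levels of 147 and 88.6 CPM to 239 and 230 CPM in IkBKO of replicates 1 and 2 (log2 fold change 0.99 ± 0.25, edgeR adjusted p = 0.0045), and the list's median was 0.40. Wdfy4 stood at 374, 348, 333 and 318 CPM in WT replicate 1, IkBKO replicate 1, WT replicate 2 and IkBKO replicate 2 (−0.09 ± 0.20, edgeR adjusted p = 0.90), values that differed by less than their error. With the 71 cells Tap1 was at 0.99 ± 0.33 (adjusted p = 0.54) and Wdfy4 at −0.70 ± 0.26 (adjusted p = 0.60). Over all members it lost its call without IkBKO replicate 1 (adjusted p = 0.078), WT replicate 2 (0.53) or IkBKO replicate 2 (0.089).

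Of 15 cDC1 markers tested between genotypes over all members, Aif1 rose (log2 fold change 0.71, edgeR adjusted p = 0.018) and Ppt1, a lysosomal thioesterase, fell by 1.04 (adjusted p = 2.2e-04). Ppt1 stood at 334, 161, 380 and 187 CPM in WT replicate 1, IkBKO replicate 1, WT replicate 2 and IkBKO replicate 2. Xcr1 was lower in both IkBKO pools without passing (−0.61 ± 0.29, adjusted p = 0.29), and the list's median was −0.23. In the 71 cells the median was −0.69, 6 of 13 genes had an unadjusted p under 0.05 and edgeR called none. There Xcr1 stood at 235 and 232 CPM in WT against 79.1 and 108 CPM in IkBKO of replicates 1 and 2, and Tlr3 at 183 and 185 against 65.9 and 60.3 CPM. The log2 fold changes of Xcr1 and Tlr3 were −1.35 ± 0.37 and −1.56 ± 0.43 there (both with an edgeR adjusted p = 0.34). Over all members the sign of Xcr1 turned when at least 2 UMIs of each rule gene were required. Members with exactly 1 UMI of Naaa were 6 WT and 25 IkBKO cells, and 15 of these 31 held Xcr1 or Clec9a. Their part in the marker changes was not tested. Aif1 was at 539 and 463 CPM in WT and at 567 and 469 CPM in IkBKO of the 71 cells, a log2 change of 0.02, and Ppt1 was at −1.27 (adjusted p = 0.11). Over all members Aif1 lost its call without IkBKO replicate 1 (adjusted p = 0.32), WT replicate 2 (0.75) or IkBKO replicate 2 (0.21), and Ppt1 without IkBKO replicate 1 (0.13).

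Among dendritic cell transcription factors, Klf4, a zinc finger factor, rose and the core factor Irf8 did not change beyond its error. Klf4 (ENSMUSG00000003032, mm10 chromosome 4, 55527143 to 55532466) stood at 88.0 and 46.4 CPM in WT and at 203 and 115 CPM in IkBKO of replicates 1 and 2 (log2 fold change 1.22 ± 0.29, edgeR adjusted p = 0.0030). Irf8 stood at 1254, 1489, 1346 and 1251 CPM in WT replicate 1, IkBKO replicate 1, WT replicate 2 and IkBKO replicate 2 (0.07 ± 0.14, adjusted p = 0.91), and its sign turned to −0.47 in the 71 cells (adjusted p = 0.85). Klf4 was the 1 gene called of 10 tested. Its adjusted p was 0.46 without WT replicate 2 and 0.50 without IkBKO replicate 1, and its change was 0.57 ± 0.38 in the 71 cells (adjusted p = 0.92).

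Of the IκB and NF-κB family, Nfkbib fell and the other 8 tested genes were not called. Nfkbib, which encodes IκBβ (ENSMUSG00000030595, mm10 chromosome 7, 28758251 to 28767512), stood at 47.7 and 59.1 CPM in WT and at 3.28 and 8.02 CPM in IkBKO of replicates 1 and 2 (log2 fold change −3.12 ± 0.78, edgeR adjusted p = 0.0046). Nfkbie, which encodes IκBε, had 9 UMIs in all members, at 22 and 8.44 CPM in WT and at 0 and 2.67 CPM in IkBKO, too few for the test. Nfkbia, which encodes IκBα, stood at 77.0, 72.1, 84.4 and 211 CPM in WT replicate 1, IkBKO replicate 1, WT replicate 2 and IkBKO replicate 2 (0.76 ± 0.30, adjusted p = 0.16). Its change was 1.42 without IkBKO replicate 1 (adjusted p = 0.0025) and −0.14 without IkBKO replicate 2 (adjusted p = 0.96). These counts come from transcripts' 3′ ends, and a 3′ tag outside a deleted part checks nothing. Nfkbib in the 71 cells stood at 95.7 and 46.3 CPM in WT and at 4.40 and 9.51 CPM in IkBKO, with too few UMIs for a test. Without WT replicate 1 its adjusted p was 0.18, without IkBKO replicate 1 0.079 and without WT replicate 2 0.52.

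NF-κB target genes included the highest log2 change of the ranked genes. Bcl2a1b, a survival factor of the BCL2 family, stood at 3.67 and 0 CPM in WT and at 42.6 and 174 CPM in IkBKO of replicates 1 and 2 (log2 fold change 5.45 ± 0.71, edgeR adjusted p = 1.5e-09). Its near-identical paralogs make its counts uncertain, and without the replicate block the adjusted p was 0.19. It was the 1 gene called of 8 tested. In the 71 cells it was at 0 CPM in both WT pools and at 57.1 and 181 CPM in IkBKO, without passing the filter on low counts. AA465934, a transcript of unknown role, stood at 3.67 and 0 CPM in WT members and at 141 and 48.1 CPM in IkBKO (5.34), with 5.25 and 4.58 CPM in WT other cells against 183 and 117 CPM in IkBKO other cells. Without IkBKO replicate 1 its adjusted p was 0.35.

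Of 10 interferon-stimulated genes tested, Ifi27l2a was the 1 gene called, and it fell. The list's median log2 change was 0.54, so Ifi27l2a went against the sign of the median. Ifi27l2a (ENSMUSG00000079017, mm10 chromosome 12, 103442167 to 103443680), an interferon-inducible gene, stood at 253 and 143 CPM in WT and at 68.9 and 10.7 CPM in IkBKO of replicates 1 and 2 (log2 fold change −2.41 ± 0.32, edgeR adjusted p = 5.6e-09). In the 71 cells it stood at 539 and 355 CPM in WT against 70.3 and 9.51 CPM in IkBKO (−3.62 ± 0.40, edgeR adjusted p = 9.4e-04), so the difference was as large without the 27 cells. Ifi27l2a kept its call whichever pool was left out, in fits that also had no replicate block. With all 4 pools but no replicate block it lost the call (edgeR adjusted p = 0.38).

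Ifitm1, an interferon-induced transmembrane protein gene (ENSMUSG00000025491, mm10 chromosome 7, 140967221 to 140969825), was called in the 71 cells but not over all members. There it had no UMI in the 13 and 6 WT cells and stood at 167 and 181 CPM in IkBKO of replicates 1 and 2 (edgeR adjusted p = 0.023). Against a floor of 3 UMIs over the WT cells of both replicates it was at least 10.5-fold higher in IkBKO. Over all members it stood at 418, 394, 401 and 358 CPM in WT replicate 1, IkBKO replicate 1, WT replicate 2 and IkBKO replicate 2 (log2 fold change −0.13, adjusted p = 0.86), and other passing cells held 785 to 903 CPM. The gene was named after its values were seen.

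Of 15 G2/M genes tested 5 rose over all members, namely Ube2c (log2 fold change 1.71), Birc5 (1.23), Cenpf (1.25), Tpx2 (1.89) and Ccnb1 (1.67), with a list median of 1.12. Ube2c, the ubiquitin-conjugating enzyme of mitotic exit, stood at 66.0 and 131 CPM in WT and at 308 and 326 CPM in IkBKO of replicates 1 and 2 (edgeR adjusted p = 3.1e-08). Of 13 G1/S genes tested, neither edgeR nor DESeq2 called any. Mki67, the proliferation marker, was detected in 6 of 22 and 7 of 16 WT cells and in 18 of 28 and 20 of 32 IkBKO cells. Ube2c kept its call whichever pool was left out, while Birc5, Cenpf, Tpx2 and Ccnb1 lost theirs without WT replicate 1 and without IkBKO replicate 2, and Ccnb1 also without IkBKO replicate 1.

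The summed 18 G2/M genes stood at 605, 1987, 1683 and 2398 CPM in WT replicate 1, IkBKO replicate 1, WT replicate 2 and IkBKO replicate 2. With those 71 cells only, the sums were 1113, 2488, 3226 and 2826 CPM, where WT replicate 2 was the highest. The G2/M median was then 0.51, 3 of 14 genes had an unadjusted p under 0.05 and edgeR called none. Among the 69 members with Xcr1 or Clec9a, Ube2c was the 1 gene called higher of 3223 (0.031%, log2 fold change 4.42, edgeR adjusted p = 0.023) and none was called lower (0%), with 282 at an unadjusted p under 0.05.

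Of 8 stem and progenitor genes tested 4 fell over all members, namely Sox4 (log2 fold change −2.63), Hlf (−2.40), Adgrg1 (−2.34) and Cd34 (−2.08). Their 14-gene sum was 1082 and 1422 CPM in WT and at 397 and 324 CPM in IkBKO members of replicates 1 and 2, and it moves with the WT excess of the 27 cells, which were chosen on these genes. In other passing cells the sum was 1806 and 2678 CPM in WT and at 1032 and 1820 CPM in IkBKO. Of 10 immediate-early genes 5 fell, namely Egr1 (−3.78), Jun (−2.04), Fos (−1.86), Btg2 (−0.86) and Jund (−0.79). Jun stood at 169 and 203 CPM in WT against 32.8 and 56.1 CPM in IkBKO (edgeR adjusted p = 1.0e-07), and in the 71 cells at 87.0 and 15.4 against 39.6 and 47.6 CPM. The genotypes thus overlapped for Jun once the 27 cells were left out. Sox4, Hlf and Egr1 did not pass the filter on low counts in the 71 cells. Sox4, Hlf, Adgrg1, Cd34 and Jun kept their calls whichever pool was left out. Egr1, a growth factor response gene, lost its call without WT replicate 1 (adjusted p = 0.093) and without WT replicate 2 (0.054). Fos lost it without WT replicate 1, IkBKO replicate 1 or IkBKO replicate 2, Jund without WT replicate 1, IkBKO replicate 1 or WT replicate 2, and Btg2 without any of the 4 pools.

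Monocyte and cDC2 genes moved in both directions. Ccr2 stood at 502 and 494 CPM in WT and at 216 and 326 CPM in IkBKO members of replicates 1 and 2 (log2 fold change −0.89 ± 0.20, edgeR adjusted p = 9.8e-04). Lyz2, lysozyme of myeloid cells, fell by 0.83 and Ms4a6c rose by 0.88. Cd300a, an inhibitory receptor, rose from 77.0 and 12.7 to 157 and 102 CPM (1.53, adjusted p = 0.0033). In the 71 cells Ccr2 was at 800 and 556 against 242 and 349 CPM (−1.24 ± 0.30, adjusted p = 0.32), with log2 changes of −1.15 for Lyz2, 0.32 for Ms4a6c and 1.06 for Cd300a, none of them called. Ccr2 lost its call in 3 of the 4 fits without a pool, with adjusted p = 0.18 without WT replicate 1, 0.46 without IkBKO replicate 1 and 0.059 without WT replicate 2. Lyz2 lost its call without WT replicate 1 (0.80) or IkBKO replicate 2 (0.49), Ms4a6c without WT replicate 2 (0.28) or IkBKO replicate 2 (0.25), and Cd300a without IkBKO replicate 1 (0.23) or WT replicate 2 (0.60).

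The remaining largest changes over all members were of mixed function. Higher were Ctnnd2 (log2 fold change 3.53), a catenin, Mcemp1 (3.28), L1cam (2.26), an adhesion molecule, Ppp1r14a (1.99), Spc24 (1.86), a kinetochore protein, Serpina3g (1.82), a protease inhibitor, and the histone gene Hist1h1b (1.74). Lower were Adgrl4 (−3.33), an adhesion receptor, Rhob (−3.30), a small GTPase, Atp2b4 (−2.91), a calcium pump, Wls (−2.81), which carries Wnt proteins to the surface, Angpt1 (−2.63), a Tie2 ligand made by stem cells, Gcnt2 (−2.58) and Tspan32 (−2.38). L1cam stood at 22 and 8.44 CPM in WT and at 59.0 and 96.3 CPM in IkBKO of replicates 1 and 2, and its change was 3.61 in the 71 cells (edgeR adjusted p = 0.32). There Mcemp1 was at 2.32 (adjusted p = 0.54), Spc24 at 1.25 (0.56), Hist1h1b at 0.94 (0.59) and Ppp1r14a at 1.13 (0.87). Adgrl4, Angpt1 and Gcnt2 kept their calls whichever pool was left out. Calls were lost without IkBKO replicate 2 by Ctnnd2, Mcemp1, L1cam, Ppp1r14a, Hist1h1b, Rhob, Atp2b4, Wls and Tspan32, and without WT replicate 1 by Spc24, Hist1h1b, Rhob, Atp2b4, Wls and Tspan32. They were lost without IkBKO replicate 1 by Ctnnd2, Serpina3g, Hist1h1b, Rhob and Wls, and without WT replicate 2 by Ctnnd2, L1cam, Ppp1r14a, Serpina3g, Atp2b4 and Wls.

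Whether the genotype changed these cells differently from the rest of the gate was tested as an interaction, the log2 change IkBKO over WT in the members minus that in all other passing cells. Of 13651 genes, 20 (0.147%) had a higher and 50 (0.366%) a lower change in the members by edgeR. With the 71 cells the counts were 9 (0.0663%) and 17 (0.125%) of 13580, and 16 of the 70 genes (0.513%) stayed called in the same direction. The median over all genes moved from −0.00 to 0.26 there, so values in the 71 cells are to be read against 0.26. For the 69 cells with Xcr1 or Clec9a they were 8 (0.0589%) and 27 (0.199%) of 13581. Leaving out IkBKO replicate 1 gave 5 and 22, leaving out WT replicate 2 gave 5 and 28, leaving out WT replicate 1 gave 10 and 30, and leaving out IkBKO replicate 2 gave 12 higher genes.

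MHC class II genes were 6 of the 50 with a lower change in the members, of 13 tested. Cd74 differed by −2.26 ± 0.12 on the log2 scale (edgeR adjusted p = 1.9e-68). In other passing cells Cd74 stood at 61.2 and 74.7 CPM in WT and at 374 and 622 CPM in IkBKO of replicates 1 and 2, whereas the members started from 8375 and 7476 CPM. H2-Aa differed by −2.11, H2-Eb1 by −2.58, H2-Ab1 by −1.49, Ciita by −1.40 and Ifi30 by −0.93. With the 71 cells and with the 69 cells the count was again 6 of 13, and Cd74 was at −2.54 and −2.36. Cd74, H2-Aa, H2-Eb1 and H2-Ab1 kept their calls whichever pool was left out. Ciita lost its call without WT replicate 1 (adjusted p = 0.054) or IkBKO replicate 2 (0.057), and Ifi30 without IkBKO replicate 1 (0.68) or WT replicate 2 (1). The other passing cells included 0, 41, 1 and 77 cells with Il4i1 and Fscn1 in WT replicate 1, IkBKO replicate 1, WT replicate 2 and IkBKO replicate 2, and 34, 39, 7 and 158 Siglech-positive cells. Their part in the interaction was not tested.

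Crip1, a small LIM-domain protein gene, was the clearest case of the opposite sign. It stood at 3758, 3519, 2181 and 3099 CPM in the members of WT replicate 1, IkBKO replicate 1, WT replicate 2 and IkBKO replicate 2. In other cells it stood at 584 and 482 CPM in WT but 190 and 207 CPM in IkBKO of replicates 1 and 2, a fall that the members did not share (interaction 1.67 ± 0.15, edgeR adjusted p = 2.7e-24). With the 71 cells the value was 1.15 (adjusted p = 3.0e-04). Wfdc17, a small secreted protein gene, differed by 1.86 and by 2.65 in the 71 cells (adjusted p = 2.8e-04). Tpx2 (1.69), Spc24 (1.47) and Ube2c (1.33), all of mitosis, differed too, each with an adjusted p = 1 in the 71 cells. Crip1 kept its call whichever pool was left out. Wfdc17 lost it without IkBKO replicate 1 or WT replicate 2, Ube2c without WT replicate 1, IkBKO replicate 1 or WT replicate 2, Spc24 without WT replicate 1, IkBKO replicate 1 or IkBKO replicate 2, and Tpx2 without any of the 4 pools.

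Ccl9, a chemokine gene, was lower in IkBKO than in WT members but higher in IkBKO than in WT other cells. It stood at 125 and 25.3 CPM in WT and at 13.1 and 5.35 CPM in IkBKO members of replicates 1 and 2, against 82.7 and 28.1 CPM in WT and at 158 and 115 CPM in IkBKO other cells (interaction −4.30 ± 0.52, edgeR adjusted p = 3.1e-13). It was called in the 71 cells too (−5.73, adjusted p = 1.3e-08). Plbd1 differed by −1.69, and both genes kept their calls whichever pool was left out. The stem cell factor Gata2 (−4.08), Ctla2b (−3.12) and the metallothionein Mt1 (−3.01) were the other lower genes of the ranking, with adjusted p = 1, 1 and 0.060 in the 71 cells. Gata2 and Ctla2b lost their calls without any of the 4 pools, Mt1 without WT replicate 1, IkBKO replicate 1 or WT replicate 2, and Dntt without IkBKO replicate 1, WT replicate 2 or IkBKO replicate 2. Dntt, the terminal transferase of lymphoid progenitors, had 15 UMIs in WT members and none in IkBKO members, at least 6.66-fold lower against a floor of 3 UMIs over the IkBKO members. It stood at 254 and 286 CPM in WT and at 88.7 and 161 CPM in IkBKO other cells.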

How the data were processed

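Single-cell RNA was measured with 10x Genomics 3′ v3.1 chemistry in 2 libraries, each of WT and IkBKO cells marked by hashing tags. Files hold raw UMI counts per barcode as deposited, made with Cell Ranger 6.0.0 per the file headers and mapped to mm10 per the submitters' processing notes, which list Cell Ranger 7.0 and Seurat 4.3.0. The authors also deposited a table of the quality call and the genotype of each barcode, whose rules the labels do not state, and tag counts. Members, gene lists, comparison classes and tests were chosen with earlier results of these data known.

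UMIs were summed per library and genotype into 4 pools and tested with edgeR 4.0.16 (quasi-likelihood, TMM, filterByExpr, replicate as a block, Benjamini-Hochberg adjusted p of at most 0.05), over all genes that passed the filter on low counts. The genes of the rule are left out of the counts of called genes. Members were set against other passing cells, against Irf8 Csf1r cells and, within members, IkBKO against WT. The interaction compared the genotype change in members with that in other cells. A replicate number marks a shared library. Deviations of same-numbered pools correlated at 0.127 over 4148 genes in members and 0.593 over 13583 genes in other cells. Named genes were the 12 highest and 12 lowest for genotype, 15 and 10 against other cells, 8 and 8 against Irf8 Csf1r cells and 5 and 5 for the interaction, all called, moving the same way in each replicate or pool, with means of at least 30 CPM (genotype) or 50 CPM. A ranked gene is not reported here. Genes of the lists were named beside these: those of the cDC1, transcription factor, MHC class II and IκB lists, and up to 5 with the highest level of each other list. Tap1, Ifitm1, Fos, Ccnb1, Cd300a and some other list genes were named after their values were seen. Shares have exact Clopper-Pearson 95% intervals. Members had 2810 to 27425 UMIs per cell. Doublets were not removed, since Scrublet marked 1 of 7683 and 0 of 10346 passing barcodes. Alternatives were DESeq2 1.42.0, limma 3.58.1, other rules for members and filters, thinning to 4000 UMIs, no block, and leaving out each pool. Genotype fits within members that left out a pool also had no replicate block. Fits were tested on simulated data. Gene IDs matched GENCODE M21 in 32235 of 32285 cases. Promoters came from RefSeq (GRCm38.p6).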

Additional observations from a re-analysis of the deposited data

Results flagged for a closer look

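The change between genotypes differed between the members and the other passing cells, by edgeR's interaction test, for 20 genes with a higher and 50 with a lower change in the members. The named genes with a higher change were Wfdc17 (1.86), Tpx2 (1.69), Crip1 (1.67), Spc24 (1.47) and Ube2c (1.33), as log2 differences of changes. The named genes with a lower change were Dntt (−11.50, a fitted value that depends on the prior count because no IkBKO member held a UMI), Ccl9 (−4.30), Gata2 (−4.08), Ctla2b (−3.12) and Mt1 (−3.01). Members were fewer and started from other levels than the cells they were compared with, and the part of cell composition in these differences was not tested.

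Barcodes that failed the deposited quality call also met the UMI part of the rule. In replicate 1 there were 49 among 1639 failing barcodes, with a median of 11809 UMIs, and in replicate 2 there were 48 among 14441, with a median of 4000.5 UMIs. They entered no comparison.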

How the results depend on the processing

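Counts of called genes depended on the setting, while directions mostly held. For IkBKO against WT in members (62 higher, 76 lower), DESeq2 size factors gave 33 and 38, DESeq2's Wald test 2 and 2, at least 2 UMIs of each rule gene 18 and 28, Mpo under 5 UMIs 10 and 18, thinning to 4000 UMIs 13 and 17, no replicate block 28 and 44, members with at most 5 progenitor-gene UMIs 1 and 1, and members with Xcr1 or Clec9a 1 and 0. Leaving out 1 pool gave 23 to 51 and 34 to 39. Against other passing cells (1269 higher, 1411 lower) the lower genes were 581 by DESeq2's Wald test, 866 with at least 2 UMIs, 790 without the replicate block (pool as a term left out) and 2389 with equal weight per cell in limma. Leaving out 1 pool gave 954 to 1246 higher and 758 to 1286 lower. Against Irf8 Csf1r cells, at least 2 UMIs gave 655 higher instead of 984, no filter gave 1363 lower instead of 808, and leaving out 1 pool gave 739 to 1173 and 606 to 963. For the interaction (20 higher, 50 lower), DESeq2's Wald test gave 2 and 17, no filter 5 higher, at least 2 UMIs 4 and 15, Mpo under 5 UMIs 7 higher, at most 5 progenitor-gene UMIs 9 and 17, Xcr1 or Clec9a 8 and 27, and leaving out 1 pool 5 to 12 and 22 to 49. The share ratio of replicate 2 was 4.3 with at most 5 progenitor-gene UMIs instead of 1.84. Signs turned for Cenpf (−0.72) and Xcr1 (0.41) with at least 2 UMIs, for Ifitm1 with at least 2 UMIs (0.26), with thinning (0.34) and with at most 5 progenitor-gene UMIs (7.95), and for Irf8 in the last of these (−0.47). Leaving out 1 pool at a time moved Irf8 between −0.022 (without IkBKO replicate 1) and 0.218, Nfkbia between −0.14 (without IkBKO replicate 2) and 1.42, and Wdfy4 between −0.195 and 0.0597 (without WT replicate 1), which turned their signs. The causes were not tested. Of the named genes' values under alternatives, 337 kept their sign and side of the threshold between genotypes, 275 lost the call, 1 gained it and 9 changed sign. For the interaction 124 kept it and 63 lost it, with no change of sign. The alternative without doublets was not run, because the caller marked almost no barcode. Precision is limited by the 16 to 32 members in a pool, whose median depth of 11198.5 UMIs lay within the range of the other cells' pool medians.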

Other observations

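Among the lists not described above, the 11 common and pre-dendritic progenitor genes summed to 755, 561, 582 and 770 CPM in the members of WT replicate 1, IkBKO replicate 1, WT replicate 2 and IkBKO replicate 2, against 1093, 2529, 615 and 956 CPM in the other passing cells. The 16 innate sensing receptors, which include the Toll-like receptors, summed to 755, 630, 612 and 717 CPM in the members and 268 to 347 CPM in the other cells. The 12 survival genes summed to 557 and 595 CPM in WT and to 699 and 874 CPM in IkBKO members of replicates 1 and 2. The 13 plasmacytoid dendritic markers were at 630 to 713 CPM in the members and at 553 to 902 CPM in the other cells, so their ranges overlapped. Between genotypes edgeR called 1 survival gene higher (Bcl2a1b) of 5 tested.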
